A study of Danio rerio with 6 samples.

Results

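The genes of the apoptosis machinery and of death receptor signalling were followed through the zebrafish renal collecting duct after X-ray irradiation. Members were defined by gene symbol alone: caspases, BCL2 family genes, inhibitor of apoptosis (birc, xiap) genes and their antagonist diabloa, apaf1, fadd, BAG and PDCD genes, and the TNF superfamily ligands (tnfsf), receptors (tnfrsf) and TRAF adaptors. The symbols matched 67 probe sets of 50 genes, out of 15502 tested probe sets and 8793 named genes, and each gene was represented by its brightest probe set, judged by the mean of the 6 arrays. All 50 were tested, with no filter on low values. The symbols were chosen with earlier results of these data known, so shares of members set beside all probe sets are descriptive. A level is the log2 RMA value of 1 array, and levels of different genes were not compared, since each probe set has its own affinity.

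Every fish carried the Tg(jam1a:EGFP) transgene, in which the promoter of the tight junction gene jam1a, now f11r.1, drives a green fluorescent protein. The irradiated ducts came from adult fish given 25 Gy of X-rays, the unirradiated ducts from fish without that treatment, and whole kidney from the same transgenic line. Each group had 2 arrays, each made from 5 pooled fish, so precision is limited by the number of arrays. The irradiated samples are known by the prefix of their titles together with the series design, and how long after irradiation the ducts were taken is not stated in the labels or the design. Whole kidney holds the ducts as well, together with nephrons and blood-forming tissue. Of 13 duct and epithelial markers, 11 were higher in irradiated ducts and 8 in unirradiated ducts than in whole kidney at an adjusted p under 0.05. None was lower at that threshold. The list was chosen with earlier results of these data known and includes f11r.1 itself, so it cannot test the duct identity. The marker cldni was under the array medians in all duct arrays and read -1.83 in irradiated ducts against kidney (limma adjusted p = 0.176).

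Apoptosis is reached by 2 routes that meet at the caspases, proteases that take the cell apart. In the extrinsic route, ligands such as TNF and TRAIL bind death receptors, whose adaptor FADD gathers and activates caspase-8. In the intrinsic route, BH3-only proteins such as Puma (bbc3) and Noxa (pmaip1), both transcriptional targets of p53 in mammals, neutralise survival members of the BCL2 family. Bax then opens the mitochondrial membrane, and released cytochrome c assembles with Apaf1 into the platform that activates caspase-9. Inhibitor of apoptosis proteins hold caspases in check, and Diablo releases them. In zebrafish embryos Puma is required for cell death after irradiation.

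The first question was what irradiation did to these genes in the ducts. The data show 5 genes at least 2-fold above unirradiated ducts, each with both irradiated arrays above both unirradiated ones: casp8, bbc3, tnfrsf1a, tnfsf10 and bcl2l1. They stand for the initiator caspase of the death receptor route, a BH3-only killer, a death receptor, a death ligand and a survival gene of the BCL2 family. No gene read 2-fold lower in that manner. These 5 of 50 members, 10%, compare with 2.57% of all probe sets that read at least 2-fold higher without overlap, and the 0 of 50 lower with 1.9%.

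Of these, casp8 came nearest to the threshold. It read 8.10 and 8.16 in the irradiated ducts, against 6.32 and 5.72 in the unirradiated ducts, with 6.44 and 6.29 in whole kidney. The irradiated arrays were high and close together, while the unirradiated ducts overlapped whole kidney. The mean was 8.13 ± 0.04 in irradiated ducts and 6.02 ± 0.43 in unirradiated ducts (SD, n = 2 each), a 4.32-fold difference (log2 fold change 2.11 ± 0.23 SE, limma adjusted p = 0.06). Among all 15502 probe sets it held rank 30 by p.

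The BH3-only gene bbc3 read 8.69 and 8.03 in irradiated ducts, against 6.996 and 6.41 in unirradiated ducts, with 6.25 and 6.24 in whole kidney. Each irradiated array exceeded every array of the other groups. The log2 fold change was 1.65 ± 0.30 (3.15-fold, adjusted p = 0.142). The receptor gene tnfrsf1a, whose product carries a death domain and binds TNF, read 7.04 and 7.001 in irradiated ducts, against 5.81 and 4.79 in unirradiated ducts and 5.22 and 5.35 in whole kidney. Only the irradiated arrays were over the array medians of 5.82 to 5.88, so the size of its difference of 1.72 ± 0.33 (3.30-fold, adjusted p = 0.156) is uncertain. The 2 unirradiated arrays were themselves 1 log2 unit apart, and without the lower of them, replicate 2, the difference was 1.21.

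The TRAIL ligand gene tnfsf10 read 7.52 and 8.03 in irradiated ducts, against 6.65 and 5.98 in unirradiated ducts and 6.96 and 6.80 in whole kidney. Its log2 fold change was 1.46 ± 0.29 (2.75-fold, adjusted p = 0.162). A second, dimmer probe set of tnfsf10 lay under the array medians on all arrays and read -0.24 ± 0.17, and the mean of both probe sets differed by 0.61. The survival gene bcl2l1, which encodes Bcl-xL, read 8.07 and 7.81 in irradiated ducts, against 6.89 and 6.71 in unirradiated ducts and 7.03 and 7.23 in whole kidney. The difference was 1.14 ± 0.18 (2.21-fold, adjusted p = 0.121), and here the second probe set went the same way, with 1.40 ± 0.29.

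**Figure D1:**
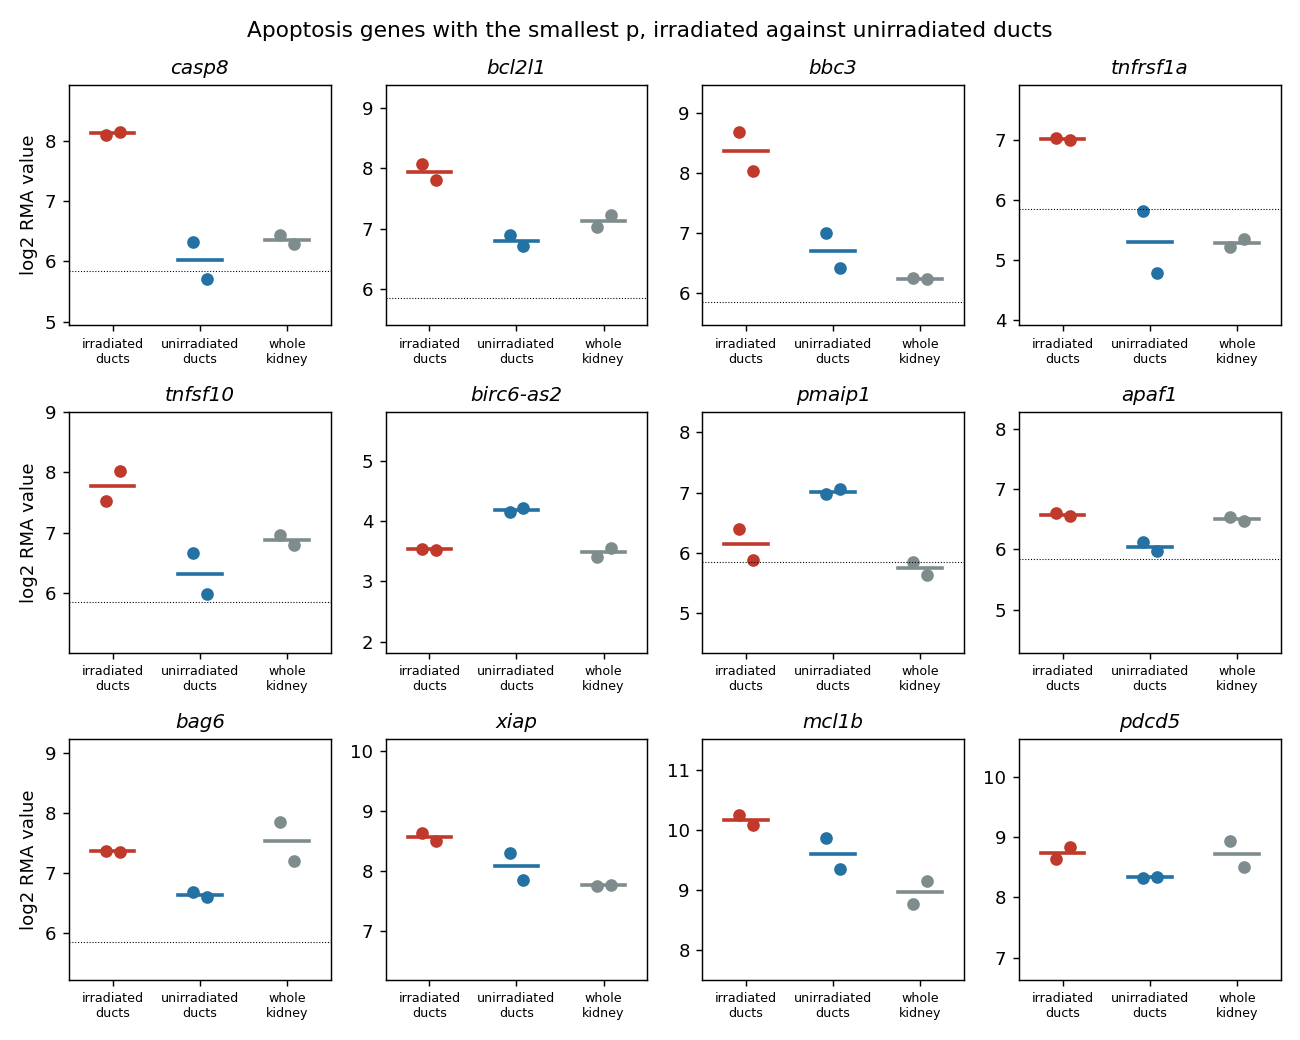
Log2 RMA values on the y axis of each panel for the 12 genes with the smallest p in irradiated against unirradiated ducts, with 1 point per array and a bar at the group mean, and the middle of the array medians as a dotted line where it falls in the panel. Each panel spans the same range of 4 log2 units, and the 2 irradiated arrays lie above both unirradiated ones in every gene but birc6-as2 and pmaip1, where they lie below.

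In the fit of all 6 arrays, 0 of 50 genes rose and 0 fell past an adjusted p of 0.05, where 0.0774% of all probe sets rose and 0.0903% fell. At an adjusted p under 0.10 the count was 1, casp8, or 2% of members against 0.419% of all probe sets. At an unadjusted limma p under 0.05, 7 genes were higher (14%, against 7.2% of all probe sets) and 2 lower (4%, against 7.07%). The 7 were casp8, bcl2l1, bbc3, tnfrsf1a, tnfsf10, apaf1 and bag6, and the 2 were birc6-as2 and pmaip1. The same counts without overlap were 22 higher (44%, against 23.8%) and 9 lower (18%, against 33%). Over the 8793 genes, each taken by its brightest probe set as the members were, the shares without overlap were 26.1% higher and 29.4% lower.

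The shared estimate of spread in this fit includes the whole kidney arrays, and the SDs of the 50 members, pooled as a root mean square, were 0.20 in irradiated ducts, 0.27 in unirradiated ducts and 0.38 in whole kidney. When the duct arrays were fitted alone, casp8 and bcl2l1 rose past an adjusted p of 0.05, with adjusted p of 0.0264 and 0.0488. These 2 of 50 genes compare with 0.568% of all probe sets higher in that fit, and the 0 lower with 0.832%. For casp8 the unadjusted limma p was no smaller there, 0.000136 against 0.000118 with all 6 arrays. For bcl2l1 it was 0.000641 against 0.000835. Over all probe sets 217 passed in the duct arrays alone, against 26 with all 6 arrays, and the adjustment depends on all of them. At an adjusted p under 0.10 in the duct arrays alone, 6 genes were higher, adding bbc3, tnfrsf1a, tnfsf10 and bag6, and 1 was lower, birc6-as2. Of all probe sets 2.83% passed in each direction. The unadjusted p of bbc3, tnfrsf1a and tnfsf10 was larger there than with all 6 arrays, and that of bag6 and birc6-as2 smaller. With all 6 arrays but any single duct array left out, the adjusted p of casp8 lay between 0.147 and 0.453 and its log2 fold change between 1.81 and 2.41.

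The median log2 fold change of the 50 genes was 0.14 (quartiles -0.16 and 0.41), beside -0.05 for all probe sets and -0.02 for all 8793 genes represented in the same manner. Of the 50, 29 were positive, beside 4227 of the 8793 genes and 6814 of the 15502 probe sets. Of the 50, 37 lay within 0.5 of 0, and the quartiles of the 8793 genes were -0.23 and 0.22. These directions are relative to the median transcript. Hybridisation controls averaged 9.07 in irradiated and 10.54 in unirradiated ducts, and centring the arrays on them adds 1.47 to each fold change. That makes all 50 positive and turns the sign of the 21 negative ones, pmaip1 (0.59) and birc6-as2 (0.81) included. Every other probe set is shifted by the same amount. Over all 15502, the median log2 fold change was 1.42 with this centring and -0.05 without it. The turn to positive values is therefore not particular to these 50 genes. By array the controls read 8.98 and 9.17 in irradiated ducts and 10.26 and 10.82 in unirradiated ducts. In whole kidney they read 8.02 and 9.82, so they also differed between arrays of 1 group.

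**Figure D2:**
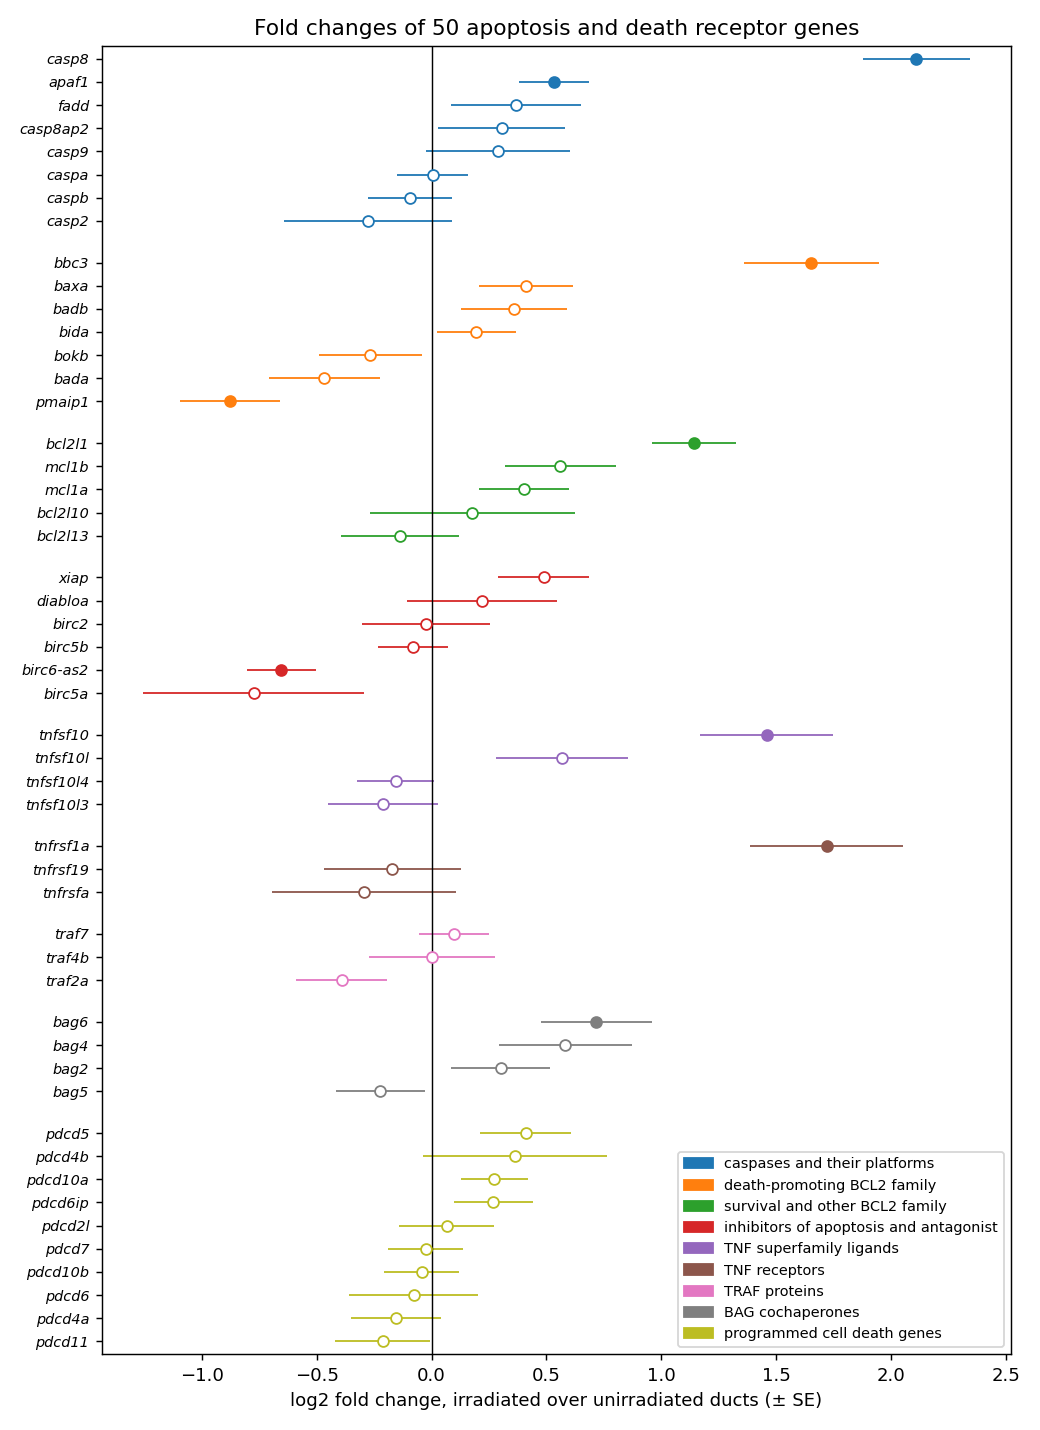
Log2 fold change of irradiated over unirradiated ducts on the x axis, with bars of 1 standard error, for all 50 genes arranged by role and coloured by it. Filled points have an unadjusted p under 0.05, and casp8, at 2.11, lies farthest from 0.

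Among the 8 caspases and their platforms, apaf1 stood beside casp8. It read 6.60 and 6.56 in irradiated ducts, against 6.12 and 5.97 in unirradiated ducts and 6.54 and 6.48 in whole kidney. Irradiated ducts thus lay 0.53 ± 0.15 above unirradiated ones (adjusted p = 0.26), close to the kidney level. The second apaf1 probe set read 0.01 ± 0.19. The initiator of the intrinsic route, casp9, had 7.45 and 6.59 in irradiated ducts, against 6.70 and 6.76 in unirradiated ducts, so the groups overlapped (0.29, adjusted p = 0.713), and without irradiated replicate 1 the value was -0.14. The adaptor gene fadd, under the array medians throughout, read 5.08 and 4.92 in irradiated ducts, against 5.01 and 4.25 in unirradiated ducts. The pyrin-domain caspase caspa, which acts in inflammasomes of zebrafish, read 5.48 and 5.53 in irradiated ducts, against 5.52 and 5.49 in unirradiated ducts. The remaining 3, casp2, caspb and casp8ap2, lay between -0.28 and 0.31, casp2 and caspb from under the array medians on all arrays. The genes casp3a and casp3b, which encode executioner caspases, were not analysed here.

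The 7 death-promoting BCL2 family genes differed in sign among themselves. Below bbc3 at the top, baxa read 8.30 and 7.98 in irradiated ducts, against 7.92 and 7.54 in unirradiated ducts and 8.33 and 8.22 in whole kidney. That difference of 0.41 ± 0.21 did not pass (adjusted p = 0.431) and was 0.25 without irradiated replicate 1. At the bottom, pmaip1 read 6.39 and 5.88 in irradiated ducts, against 6.98 and 7.05 in unirradiated ducts and 5.85 and 5.63 in whole kidney. Its 2 irradiated arrays lay below both unirradiated ones (-0.88 ± 0.22, adjusted p = 0.232), while a second probe set under the array medians read 0.22 ± 0.23. The bbc3 (Puma) probe set and the brighter pmaip1 (Noxa) probe set thus had opposite signs, with neither past the threshold. Of the other 4, badb and bida read 0.36 and 0.20, and bada and bokb -0.47 and -0.27, bokb from under the array medians. In the GRCz12tu annotation bida lies next to bcl2l13, which read -0.14.

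On the survival side, mcl1b read 10.25 and 10.08 in irradiated ducts, against 9.86 and 9.35 in unirradiated ducts and 8.76 and 9.15 in whole kidney. The paralogue mcl1a read 11.09 and 10.86 in irradiated ducts, against 10.57 and 10.58 in unirradiated ducts and 9.86 and 10.26 in whole kidney. Both were ordered irradiated, unirradiated, kidney without overlap, and the steps between the ducts were 0.56 ± 0.24 and 0.40 ± 0.20 (adjusted p = 0.371 and 0.422). The survival gene bcl2l10 overlapped between the duct groups (0.18, adjusted p = 0.886). The gene bcl2a was not analysed here.

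Of the 6 inhibitors of apoptosis and their antagonist, the caspase inhibitor gene xiap read 8.63 and 8.50 in irradiated ducts, against 8.30 and 7.85 in unirradiated ducts and 7.75 and 7.77 in whole kidney. The difference between the ducts was 0.49 ± 0.20 (adjusted p = 0.353). The ubiquitin ligase gene birc2 read 10.03 and 9.98 in irradiated ducts, between the 9.83 and 10.24 of unirradiated ducts. Survivin, encoded by birc5a and birc5b, works chiefly in chromosome segregation. For birc5a the irradiated ducts read 5.67 and 5.89, against 6.76 and 6.35 in unirradiated ducts and 8.78 and 7.28 in whole kidney (irradiated against unirradiated -0.78 ± 0.48, adjusted p = 0.508). Proliferation markers were low beside it. The 12 measured markers averaged 5.85 and 6.004 in irradiated ducts, against 6.73 and 6.37 in unirradiated ducts and 8.40 and 7.53 in whole kidney. Between the duct groups 0 of the 12 passed the threshold. Of the 12, 11 were negative and 1 positive, with log2 fold changes from -1.45 to 0.08. The part of these markers in the birc5a value was not tested. The paralogue birc5b stayed under the array medians in all groups (-0.08). The antisense RNA gene birc6-as2 was also under the medians on all arrays, with 3.54 and 3.52 in irradiated ducts, against 4.15 and 4.22 in unirradiated ducts (-0.65 ± 0.15, adjusted p = 0.206), so it is not shown to be detected. The antagonist gene diabloa read 0.22 (adjusted p = 0.796).

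Beside tnfsf10, the TRAIL-like ligand gene tnfsf10l was the other ligand with a positive value. It read 9.28 and 8.58 in irradiated ducts, against 8.25 and 8.48 in unirradiated ducts and 6.30 and 6.73 in whole kidney, and the step between the ducts was 0.57 ± 0.29 (adjusted p = 0.435). That step depended on the irradiated array used, with 0.22 without replicate 1 and 0.92 without replicate 2. The ligand genes tnfsf10l3 and tnfsf10l4 read -0.21 and -0.16, tnfsf10l3 from under the array medians. Of the receptors other than tnfrsf1a, tnfrsf19 and tnfrsfa read -0.17 and -0.29. Further tnfrsfa probe sets, under the array medians on all arrays, differed in sign and read 0.47 ± 0.24 and -0.13 ± 0.15. The TRAF genes, whose products link TNF receptors to kinases, lay near 0 or below it. For traf2a, under the array medians on all arrays, the values were 4.54 and 4.11 in irradiated ducts, against 4.74 and 4.69 in unirradiated ducts. Its difference was -0.39 ± 0.20 (adjusted p = 0.435), and -0.18 without irradiated replicate 2. The gene traf4b read 0.0017 and traf7 0.10, traf7 also from under the medians on all arrays.

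Among the 4 BAG genes, which encode partners of Hsp70 chaperones, bag6 read 7.37 and 7.35 in irradiated ducts, against 6.69 and 6.59 in unirradiated ducts and 7.86 and 7.20 in whole kidney. The difference of 0.72 ± 0.24 (adjusted p = 0.301) rested on arrays that agreed within 0.1 in each duct group. The values of bag4, bag2 and bag5 were 0.58, 0.30 and -0.22, bag2 and bag5 from under the array medians on all arrays. The 10 PDCD genes, named for programmed cell death but with varied roles, lay between -0.21 and 0.41, with pdcd5 highest at 8.65 and 8.84 in irradiated ducts, against 8.32 and 8.34 in unirradiated ducts (0.41 ± 0.20, adjusted p = 0.417). The translation inhibitor gene pdcd4a had 4 probe sets that differed: the brightest read -0.15, 2 others 0.998 and 1.06, and the dimmest -0.28. The probe set at 1.06 was 2.08-fold higher without overlap but, not being the brightest, is outside the 5 genes counted above. Of the 13 genes with several probe sets, 5 had the same sign in all of them and 8 did not.

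Other genes of the pathway were taken from a list of 65 apoptosis and NF-kB partners outside the symbol rule, of which 30 were measured. Of these, 0 passed in either direction, and their median was 0.11. At an unadjusted limma p under 0.05, 3 of the 30 were higher and 1 lower, beside 7.2% and 7.07% of all probe sets. The death receptor gene fas read 5.52 and 5.88 in irradiated ducts, against 5.07 and 4.52 in unirradiated ducts, mostly under the array medians (0.91 ± 0.26, adjusted p = 0.253). The caspase-8 regulator gene cflara read 0.69 ± 0.28, the mitophagy gene bnip3 0.83 ± 0.27, and the BH3-only gene bik -0.56 ± 0.19, with adjusted p between 0.297 and 0.348.

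Genes of p53 and its damage response targets were read in the same arrays. Of 29 listed genes 21 were measured, bbc3 and pmaip1 among them. Upward 1 of the 21 passed, where 0.0774% of all probe sets did: mdm2, which encodes the ubiquitin ligase of p53 (2.48 ± 0.17, adjusted p = 0.0184). The next by p were rps27l, ccng1 and phlda3, each without overlap between the duct groups and with adjusted p between 0.0606 and 0.0806. Their log2 fold changes were 3.04, 1.43 and 2.32, set beside the 1.65 of bbc3 and the -0.88 of pmaip1. The median of the 21 genes was 0.04. This list was chosen with earlier results of these data known, so its count past the threshold is descriptive and not a test.

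Leukocyte markers differed between the duct groups as well, and RNA quality set unirradiated replicate 2 apart. Of 10 leukocyte markers, 3 fell past the threshold (lyz, trac and ptprc) and 0 rose, where 0.0903% of all probe sets fell and 0.0774% rose. The marker lists were also chosen with earlier results of these data known, so such counts are descriptive and not a test. The mean level of the 10 was 6.93 and 7.10 in irradiated ducts, against 8.53 and 8.32 in unirradiated ducts and 9.09 and 8.95 in whole kidney. Of the 10, 9 were negative, and mpx, the neutrophil peroxidase gene, read 1.47. The markers under the array median numbered 3 in each irradiated array and 2 in each array of the other groups, and trac lay under it in irradiated ducts alone. Duct and epithelial markers averaged 10.40 and 10.36 in irradiated ducts, against 10.26 and 10.09 in unirradiated ducts, with 0 of 13 past the threshold. Of the 13, 10 were positive and 3 negative. At an unadjusted limma p under 0.05, 2 of the 13 were higher and 0 lower, beside 7.2% and 7.07% of all probe sets. Skeletal muscle markers averaged 6.96 and 6.62 in irradiated ducts, against 6.95 and 8.003 in unirradiated ducts. All 10 of them were negative, and 0 passed the threshold. Erythroid markers averaged 9.44 and 8.32 in irradiated ducts, against 8.73 and 9.35 in unirradiated ducts. The GAPDH 3' minus 5' difference, which grows as RNA degrades, was 1.13 and 0.97 in irradiated ducts, against 1.16 and 2.52 in unirradiated ducts. Unirradiated replicate 2 thus stood apart, and without it the log2 fold changes were 1.81 for casp8, 1.36 for bbc3, 1.12 for tnfsf10 and 1.05 for bcl2l1. Some smaller differences shrank by over 1.5 times without it, to 0.31 for mcl1b, 0.26 for xiap and 0.22 for baxa. Without it fadd read -0.01 and bcl2l10 -0.18. Other small differences held or grew, with 0.41 for mcl1a, 0.42 for pdcd5, 0.73 for bag4 and 0.68 for tnfsf10l. The part of these markers in the apoptosis values was not tested, and in such bulk RNA fewer cells of a type cannot be told apart from less RNA per cell.

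**Figure D3:**
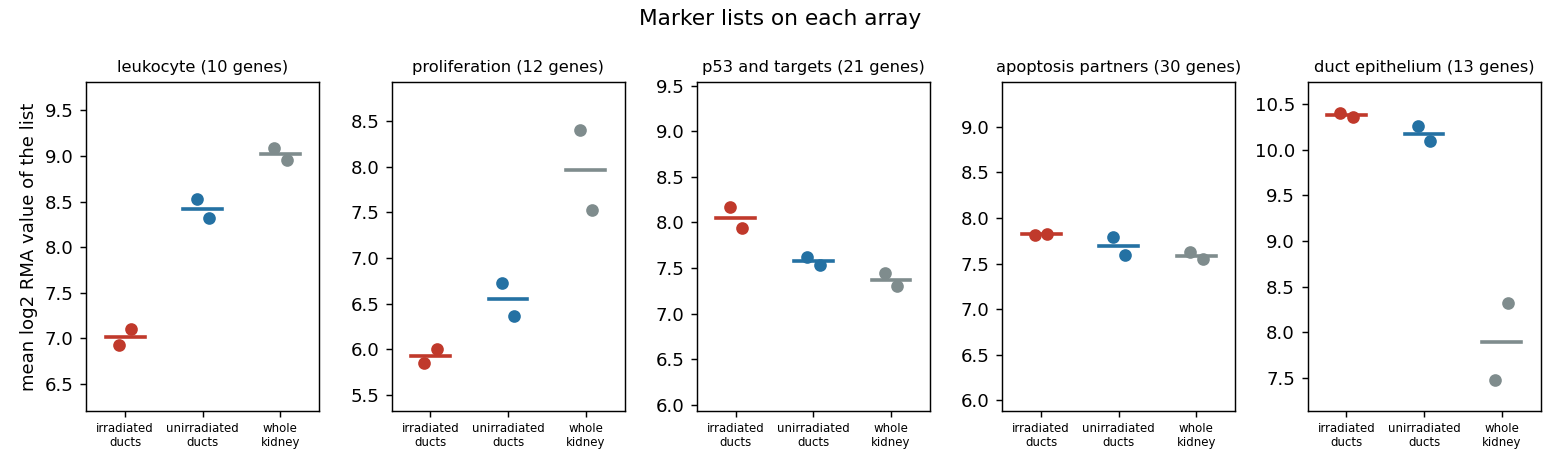
Mean log2 RMA value of 5 gene lists on the y axis, with 1 point per array and a bar at the group mean, for irradiated ducts, unirradiated ducts and whole kidney. All panels span 3.6 log2 units, and the leukocyte list is lowest in irradiated ducts at 6.93 and 7.10, while the apoptosis partner list lies between 7.55 and 7.83 in every group.

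The second question was how the ducts differ from whole kidney. In irradiated ducts 8 of the 50 genes were higher than in whole kidney and 2 lower, that is 16% and 4% of members, against 6.21% and 4.24% of all probe sets. In unirradiated ducts 3 were higher and 1 lower, that is 6% and 2%, against 4.27% and 2.99%. Both comparisons use the same kidney arrays, so their values are given side by side. The counts rest on the brightest probe set of each gene. A dimmer pdcd4a probe set was lower in unirradiated ducts than in kidney (-1.27 ± 0.21, adjusted p = 0.0269), where the brightest read -0.27.

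The ligand gene tnfsf10l was higher in both duct groups, by 2.41 ± 0.29 in irradiated ducts (5.33-fold, adjusted p = 0.00847) and by 1.85 ± 0.29 in unirradiated ducts (adjusted p = 0.0242). The receptor gene tnfrsf19 was higher by 1.49 ± 0.30 in irradiated and 1.66 ± 0.30 in unirradiated ducts (adjusted p = 0.0337 and 0.034). It read 5.18 and 5.27 in irradiated ducts, 5.36 and 5.44 in unirradiated ducts, and 3.29 and 4.18 in whole kidney, all under the array medians, so the size is uncertain. The caspase gene caspa was lower in both, with log2 fold changes of -1.004 ± 0.15 in irradiated and -1.01 ± 0.15 in unirradiated ducts (adjusted p = 0.0162 and 0.023), with 6.60 and 6.42 in whole kidney and duct values under the array medians. Of 10 leukocyte markers, 9 were negative against whole kidney in each duct group. Past the threshold 8 were lower in irradiated and 2 in unirradiated ducts, against 4.24% and 2.99% of all probe sets. The positive ones were mpx in irradiated ducts (1.46) and trac in unirradiated ducts (0.27). The part of these markers in the caspa value was not tested.

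In irradiated ducts bbc3 exceeded whole kidney by 2.12 ± 0.30 (4.34-fold, adjusted p = 0.0128), casp8 by 1.77 ± 0.23 (3.40-fold, adjusted p = 0.0109) and tnfrsf1a by 1.73 ± 0.33 (adjusted p = 0.0306). The size for tnfrsf1a is uncertain, since both of its whole kidney values lay under the array medians. The survival genes mcl1b, mcl1a and bcl2l1 exceeded it by 1.21 ± 0.24, 0.92 ± 0.20 and 0.81 ± 0.18, with adjusted p of 0.0338, 0.0408 and 0.0459. In unirradiated ducts the same 6 genes read 0.46, -0.35, 0.01, 0.65, 0.52 and -0.33 against whole kidney, and 0 passed. For these 6 the difference between the 2 duct contrasts is the irradiated against unirradiated comparison itself, in which 0 passed with all 6 arrays. The mitotic survival gene birc5a was lower in irradiated ducts than in kidney (-2.25 ± 0.48, adjusted p = 0.0403) and read -1.48 ± 0.48 in unirradiated ducts (adjusted p = 0.123). Conversely, pmaip1 was higher in unirradiated ducts (1.28 ± 0.22, 2.42-fold, adjusted p = 0.0302) and read 0.40 ± 0.22 in irradiated ducts (adjusted p = 0.32), but with the mean of its probe sets the first value was 0.70 and did not pass. Of the 30 pathway partners, 1 was higher in irradiated ducts than in kidney, bik (1.87 ± 0.19, adjusted p = 0.00599). In unirradiated ducts 2 were higher, bik (2.42 ± 0.19, adjusted p = 0.00591) and nfkbiaa, an inhibitor gene of NF-kB (1.36, adjusted p = 0.0299). Of all probe sets 6.21% and 4.27% were higher in these comparisons, so these counts of partners are not shown to differ from that share.

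These calls depended on single arrays. Without either unirradiated array, 0 genes passed in unirradiated ducts against kidney, and without either irradiated array, or with these 4 arrays fitted alone, pmaip1 and tnfsf10l did. In irradiated ducts against kidney, tnfsf10l alone passed without irradiated replicate 1, and bbc3 and tnfsf10l without irradiated replicate 2. Without either unirradiated array, or with the 4 arrays fitted alone, casp8 and tnfrsf1a passed as well. With arrays centred on the hybridisation controls, pmaip1 read -0.34 in unirradiated ducts against kidney, and 0 of the 10 calls in irradiated ducts against kidney passed.

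**Figure D4:**
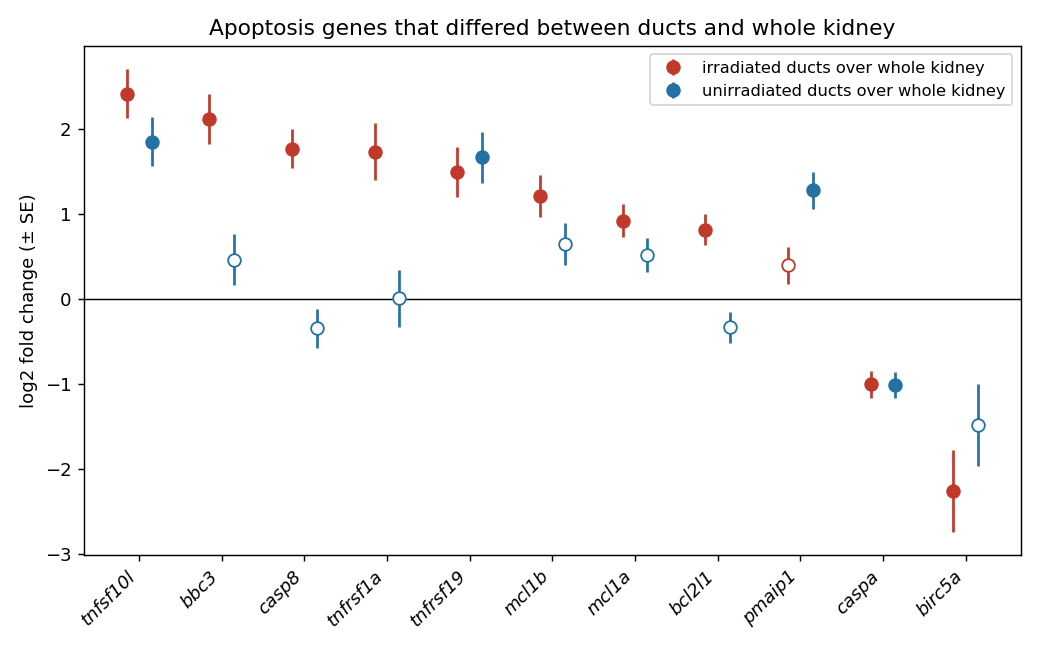
Log2 fold change over whole kidney on the y axis, with bars of 1 standard error, in irradiated and unirradiated ducts for the 11 genes past an adjusted p of 0.05 in either comparison (filled points passed, open points did not). The genes tnfsf10l, tnfrsf19 and caspa passed in both, at 2.41 and 1.85, 1.49 and 1.66, and -1.004 and -1.01.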

How the data were processed

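RNA was measured on 6 zebrafish 3' expression arrays, 2 per group. The deposited values are on a log2 scale. The authors obtained them with RMA from the affy package, per the submitters' processing notes, which name no version. RMA normalises quantiles across arrays, so a shift of all transcripts is removed. Array control probe sets (115) were left out. Probe sets were named from the platform annotation, with symbols brought up to date by gene ID. The comparisons used limma 3.58.1 under R 4.3.3, with 1 mean per group and all 6 arrays in 1 fit with 3 residual degrees of freedom, two-sided, with Benjamini-Hochberg adjustment over 15502 probe sets; an adjusted p under 0.05 is past the threshold, and under 0.10 was counted beside it. Exact permutation of 2 against 2 arrays gives p = 0.333 at the least and was not used. The submitters call the pools independent. Each p-value sets a difference of means against a spread between pools that the 3 groups share. That spread also borrows from all probe sets, with 2.83 prior degrees of freedom. The code was tested on simulated data.

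The members and gene lists were chosen with earlier results of these data known. Genes given array by array were the 12 with the smallest p in irradiated against unirradiated ducts, those past the threshold against kidney (up to 6 each way), and 14 of 17 core genes that were measured; others are named with single values. From each list up to 4 genes by p were taken. The fits tried beside it took the replicate number as a block, used only the 2 groups compared, set trend and robust in eBayes, applied a filter at a mean log2 of 6, centred arrays on 14 hybridisation control probe sets, averaged a gene's probe sets, or left out 1 array. Sequences were not used here.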

Additional observations from a re-analysis of the deposited data

How the results depend on the processing

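For irradiated against unirradiated ducts, 26 of 15502 probe sets passed an adjusted p of 0.05 in the main fit. In the compared groups alone 217 did, with control centring 148, and with a gene's probe sets averaged 32 of 13500. The count of members past this threshold was 0 in the main fit. It became 2 in the compared groups alone and 3 with control centring (bbc3, casp8 and tnfrsf1a). With the mean of a gene's probe sets it was 1 (casp8). It rose without either kidney array, where casp8 and bcl2l1 passed. At 0.10 the count was 1 and became 0 with the replicate number as a block and 5 with control centring. In the compared groups alone it was 7, where 2.83% of all probe sets passed in each direction. It fell without any 1 duct array and rose without either kidney array. For unirradiated ducts against kidney the count of 4 became 2 in the compared groups alone and 2 with the filter, which removes caspa and tnfrsf19. It fell without either unirradiated array and rose without kidney replicate 2. Where no share of all probe sets is given for a fit, its count of members is not compared with such a share. For irradiated ducts against kidney the count of 10 became 4 in the compared groups alone and 0 with control centring, and it ranged from 1 (without irradiated replicate 1) to 11 (without kidney replicate 2). The filter removes caspa, tnfrsf19 and tnfrsf1a from these 10 calls, and tnfrsf1a was not tested with it in any comparison. The sign of pmaip1 in unirradiated ducts against kidney turned to -0.34 with control centring. By construction, control centring adds 1.47 to each fold change of irradiated against unirradiated ducts. It adds -1.62 in unirradiated and -0.15 in irradiated ducts against kidney. It also carries the spread of the controls within a group, such as 8.02 and 9.82 in whole kidney, into every probe set. The cause of the other changes was not tested, except that the filter tests fewer genes and a left-out array leaves fewer samples. Over all probe sets the counts past 0.05 were 26, 1126 and 1620 in the 3 comparisons; with irradiated against unirradiated ducts fitted alone the first was 217, with control centring 148, and with any duct array left out 0. The replicate numbers share only a number: deviations of same-numbered arrays correlated between -0.10 and 0.06, and with the replicate block the counts at 0.05 were 0, 4 and 7. Of 362 refitted values of named members, 292 kept their sign and side of the threshold, 52 no longer passed, 10 newly passed, and 8 changed sign, 7 of them without passing in either fit. Levels under the array medians are not shown to be above background. On all arrays 12 members had such levels: casp2, caspb, fadd, bokb, birc5b, birc6-as2, tnfsf10l3, tnfrsf19, traf2a, traf7, bag2 and bag5.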
